A study of Mus musculus with 30 samples.

Results

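The 41 mitosis genes described here are listed genes of the G2 and M phases of the cell cycle, taken by name from the 45706 genes of the deposited expression tables. No cut on their values was used, but earlier results of these data were known when the list was chosen. All 41 were found once, and all 41 passed the filter on low values, so the counts below cover the whole list. The study sequenced mRNA from mouse osteoclasts grown on bone slices, to ask whether expression differs between ages of wild-type mice and mice that lack Terc, the RNA component of telomerase. Bone marrow-derived macrophages of C57BL/6J mice were differentiated with M-CSF (25 ng/ml) plus RANKL at 100 ng/ml, either for 2 days or until large multinucleated cells were present, a stage whose day is not given. There were 30 libraries in 10 groups of 3.

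Of the Terc-/- groups, all at the large-cell stage, 2 came from mice of 1 and 6 months, and 2 more from the same ages carried the mark 519 in their titles. Wild-type large cells came from mice of 1, 6 and 20 months, and a further 1-month wild-type group was marked gaiwei. Wild-type cultures of 2 days came from mice of 20 and 6 months. The labels do not explain either mark. Nothing states whether the 3 libraries of a group came from separate animals or cultures, so p-values rest on a spread between libraries that may be technical. That spread was pooled over all 10 groups and is not that of the groups compared.

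Mitosis is started by the kinase CDK1 with its cyclins, carried out by a microtubule spindle that captures chromosomes at their kinetochores, held by the spindle checkpoint until every chromosome is attached, and ended when the anaphase-promoting complex marks cyclin B and securin for destruction. Most of these genes are transcribed late in the cycle, so their mRNA is high in dividing populations and low in cells that have stopped dividing. Osteoclast precursors divide in response to M-CSF, leave the cell cycle, and then fuse into multinucleated cells.

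Promoters of such genes are known for the cell cycle genes homology region (CHR), which is bound by MuvB complexes, and for CCAAT boxes, which are bound by NF-Y. RefSeq windows of 300 bases, with 250 before and 50 after a transcription start (build GRCm38.p6), were held for 33 of the 41 genes, in 36 windows. The letters TTTGAA or TTCGAA, searched on both strands for the CHR, were in 27 of the 36 windows (75%), against 19.2% of 32851 windows of all genes. CCAAT on either strand was in 25 windows (69.4%), against 37.4% of all windows. Both were in 23 windows (63.9%), against 7.52% of all windows. A match is only a run of letters, and the absence of one says only that the letters are not in that window. The windows of Mybl2, Plk4, Birc5, Mad2l1, Nuf2, Nusap1 and Pttg1 held neither. No window was held for Kif20a, Cdc25c, Ccna2, Incenp, Dlgap5, Aurkb, Foxm1 and Tpx2.

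The stretch from 100 bases before to 30 bases after the start is given here, 5′ to 3′ on the gene's strand, for 7 genes chosen after their values were seen. Cdk1, Ccnb2, Cdc20, Ube2c and Ccnb1 stand for genes that were much lower in 20-month large cells, and Bub3 and Pttg1 are the members that varied least between groups. Capitals mark CHR letters (TTTGAA, or TTCAAA where the match is on the other strand) and CCAAT letters (ATTGG on the other strand).
Cdk1 (chr10:69352883-69353012, minus strand): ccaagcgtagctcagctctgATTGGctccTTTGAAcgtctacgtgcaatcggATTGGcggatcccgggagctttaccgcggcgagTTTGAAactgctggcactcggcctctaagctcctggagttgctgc
Ccnb2 (chr9:70421525-70421654, minus strand): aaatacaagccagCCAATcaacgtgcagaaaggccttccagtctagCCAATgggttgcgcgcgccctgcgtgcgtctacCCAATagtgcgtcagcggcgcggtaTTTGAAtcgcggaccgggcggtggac
Cdc20 (chr4:118437314-118437443, minus strand): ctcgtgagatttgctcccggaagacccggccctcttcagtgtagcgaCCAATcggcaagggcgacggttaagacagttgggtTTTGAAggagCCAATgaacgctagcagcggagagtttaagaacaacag
Ube2c (chr2:164769829-164769958, plus strand): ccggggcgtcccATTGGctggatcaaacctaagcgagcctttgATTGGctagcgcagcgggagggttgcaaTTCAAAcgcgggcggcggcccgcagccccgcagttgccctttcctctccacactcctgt
Ccnb1 (chr13:100786457-100786586, minus strand): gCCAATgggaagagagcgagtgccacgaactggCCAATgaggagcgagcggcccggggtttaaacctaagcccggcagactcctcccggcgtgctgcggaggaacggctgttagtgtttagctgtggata
Bub3 (chr7:131560270-131560399, plus strand): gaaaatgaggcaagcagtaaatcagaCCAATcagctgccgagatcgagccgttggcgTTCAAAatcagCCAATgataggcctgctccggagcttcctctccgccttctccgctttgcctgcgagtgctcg
Pttg1 (chr11:43425952-43426081, minus strand): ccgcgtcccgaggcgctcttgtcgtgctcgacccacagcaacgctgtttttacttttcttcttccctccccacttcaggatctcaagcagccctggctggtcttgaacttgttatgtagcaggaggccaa
Cdk1 held 2 CHR matches and 2 CCAAT matches in this stretch, and Ccnb2 held 1 and 3. Cdc20, Ube2c and Bub3 held 1 CHR match and 2 CCAAT matches each. Ccnb1 held 2 CCAAT matches and no CHR letters, and Pttg1 held neither. Bub3 thus held as many matches of each kind as Cdc20 and Ube2c, whose levels varied far more.

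All values below are TPM as deposited (transcript abundance scaled by gene length and library total). Differences are log2 changes on the log2(scaled TPM + 1) scale, from limma over the 12614 genes that averaged 1 TPM or more, and understate the change of low genes. A gene was called when its Benjamini-Hochberg adjusted limma p was below 0.05. Where genes are said to lie wholly below or above in TPM, the values are as deposited. The share of all genes separated in that way was not counted. Read depth is unknown because no counts were held.

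Several facts about the libraries touch the results. All 12 markers on the osteoclast list averaged at least 1 TPM in unmarked large cells, where they summed to 5573 to 29510 TPM, against 528 to 970 TPM in 2-day cultures. Marked large cells had only 976 to 2331 TPM of these markers, and Calcr was at 0 in the 1-month 519-marked group. The 3 unmarked 1-month wild-type libraries had 46.6 to 84.1 TPM of Xist and no Eif2s3y, while the other 27 had at most 0.254 TPM of Xist. The 1-month groups of both unmarked genotypes thus also differ in the sex pattern of these genes. Eif2s3y was 12.1 to 19.2 TPM in 1-month Terc-/- libraries, marked and unmarked, and 40.8 to 82.0 TPM in all others that held it. Terc-/- cells of 6 and 1 months, and 1-month marked cells of both genotypes, therefore differ in this gene too. Terc was at 0 in every Terc-/- library but also in all but 3 wild-type libraries, where it reached at most 1.13 TPM, so it does not check the genotype labels. Replicate 2 of the 6-month wild-type large cells stood apart: its correlation with the other libraries of its group averaged 0.965, and it held 2389 TPM of mt-Co1 against 22530 and 20010 TPM in the other two.

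Added over the 41 genes, mitosis mRNA was lowest in 20-month wild-type large cells and highest in the 2-day cultures of the same age. The sum was 390, 321 and 408 TPM in 20-month large cells, against 2016, 2051 and 1888 TPM in 20-month 2-day cultures. At 6 months it was 1049, 596 and 1055 TPM in large cells, against 1269, 1326 and 1469 TPM in 2-day cultures. In TPM as deposited, the 20-month large cells thus lay below every other library, and the 2-day cultures of either age lay above every large-cell library. After the scaling used for the tests, the 20-month large cells were still lowest, at no more than 343.7. The scaled sums of 6-month 2-day cultures, 1013, 1050 and 1165, then overlapped those of large cells, which reached 1103 in gaiwei-marked and 1029 in 6-month wild-type libraries. The remaining large-cell sums were 745 to 825 TPM in 1-month Terc-/-, 798 to 854 TPM in 6-month Terc-/- and 819 to 854 TPM in 1-month wild type, and those of marked libraries ran from 426 to 893 TPM. In bulk RNA, fewer dividing cells and less mitosis mRNA per cell cannot be told apart.

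**Figure D1:**
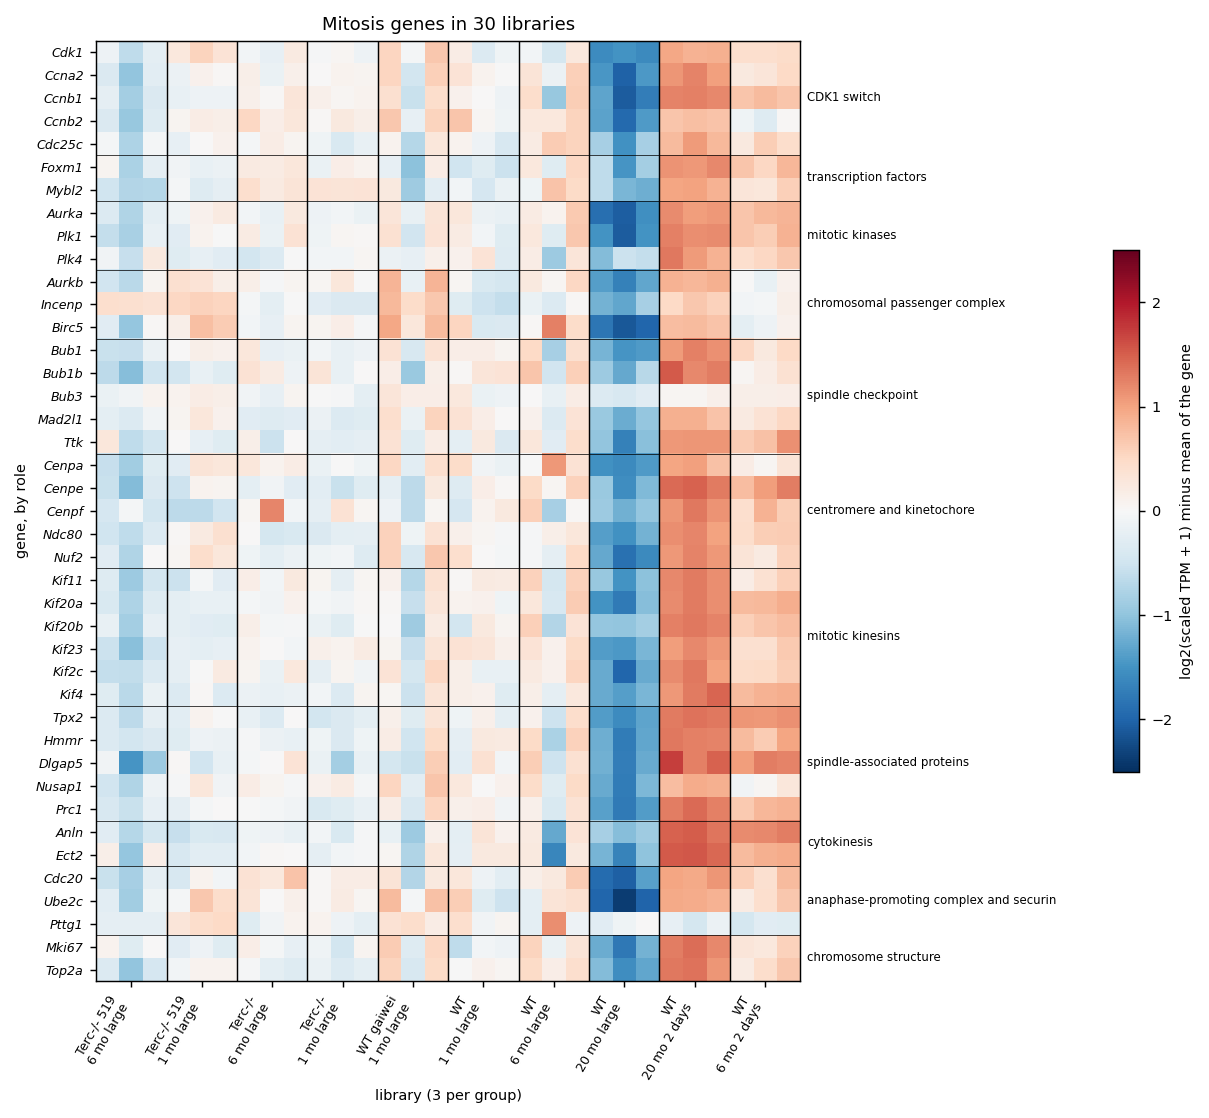
Heat map of the 41 mitosis genes (rows, by role) in 30 libraries (columns, 3 per group), coloured by log2(scaled TPM + 1) minus the gene's mean over all libraries. The 3 columns of 20-month wild-type large cells are blue in nearly every row, the 20-month 2-day columns are red, and the rows of Bub3 and Pttg1 stay pale apart from 1 library.

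By group mean, 35 of the 41 genes were lowest in 20-month large cells and 39 were highest in 20-month 2-day cultures. The exceptions at the high end were Bub3, highest in 6-month 2-day cultures, and Pttg1, highest in 6-month large cells through the 74.1 TPM of replicate 2, against 46.7 and 43.3 TPM in its other two libraries. At the low end, Mybl2, Bub1b, Bub3 and Pttg1 were lowest in 6-month 519-marked cells, and Plk4 and Anln in 1-month 519-marked cells. The highest group mean was 1.61 times the lowest for Pttg1, 1.70 times for Bub3, 3.64 times for Incenp and 4.20 times for Mad2l1. For the other 37 genes this ratio lay between 5.11 for Plk4 and 10.4 for Kif4, a chromosome-bound kinesin.

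At 20 months, 40 of the 41 mitosis genes fell in large cells relative to 2-day cultures and none rose, where 36.2% of all genes tested were called, 18.7% higher and 17.5% lower. The median log2 change was -2.49 for the mitosis genes and 0.00 for all genes. In TPM, all 3 large-cell libraries lay below all 3 2-day libraries for 40 genes, Pttg1 being the exception. This separation was not counted over all genes. The 3 largest falls were those of Ube2c (-3.04 ± 0.26 SE), Ccnb1 (-2.94 ± 0.28) and Aurka (-2.92 ± 0.18), with limma adjusted p of 2.80e-09, 1.79e-08 and 1.29e-11. The 3 smallest were those of Bub3 (-0.41 ± 0.11), Incenp (-1.69 ± 0.12) and Plk4 (-1.83 ± 0.25), with limma adjusted p of 0.00469, 1.31e-10 and 2.78e-06. The count of 40 was the same in each fit that left out 1 library.

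At 6 months the same step was smaller and mixed. Of the 41 genes, 15 fell and 2 rose, where 49.8% of all genes were called, 24.6% higher and 25.1% lower, and the median log2 change was -0.33, against -0.02 for all genes. The share of mitosis genes called was thus below the share of all genes. In TPM as deposited, where the median of all genes was -0.36, large cells lay wholly below 2-day cultures for 27 genes, a separation not counted over all genes. The largest falls were those of the cytokinesis genes Anln (-1.46 ± 0.28, limma adjusted p = 0.000213) and Ect2 (-1.25 ± 0.35, limma adjusted p = 0.00573) and of the spindle factor Tpx2 (-1.10 ± 0.18, limma adjusted p = 3.82e-05). The 2 rises were those of Birc5 (0.67 ± 0.27, limma adjusted p = 0.0443) and Pttg1 (0.60 ± 0.22, limma adjusted p = 0.0284).

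The 6-month counts depended on single libraries and on the scaling. Without replicate 2 of the large cells, 5 genes were called, all lower (Ndc80, Kif4, Tpx2, Prc1 and Anln), with a median of -0.20. The other 10 falls lost their call in that fit, and neither Birc5 (0.33, limma adjusted p = 0.335) nor Pttg1 (0.15, limma adjusted p = 0.388) was called. Birc5 also lost its call without replicate 4 of the large cells or replicate 1 or 2 of the 2-day cultures, and Pttg1 without any 1 of the 2-day libraries. Without replicate 2 or 3 of the 2-day cultures, 11 and 9 genes were called. When each group had its own spread, 2 were. With TPM as deposited, a scaling under which the median of all genes moved to -0.36, 26 genes were lower and none higher, and the median relative to that of all genes was -0.35.

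**Figure D2:**
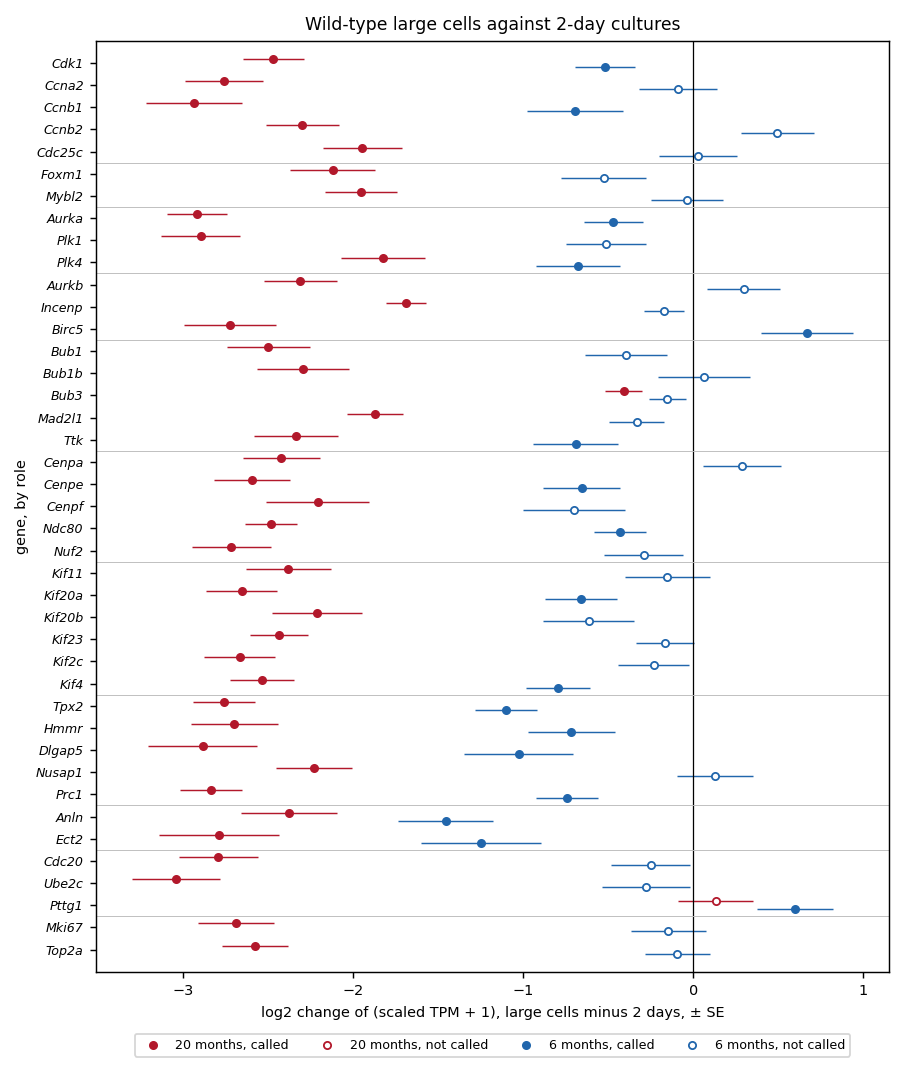
Log2 change of each mitosis gene in wild-type large cells against 2-day cultures at 20 months (red) and 6 months (blue), with standard errors; filled points were called. The 20-month points lie near the median of -2.49 except for Bub3 and Pttg1, and the 6-month points lie around -0.33 on both sides of 0.

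The difference between the ages was itself tested. For 38 of the 41 genes the change was more negative at 20 than at 6 months, where 25.0% of all genes differed between ages, 12.6% in this direction and 12.4% in the other, and the median difference was -2.06 (all genes 0.01). The 3 genes whose changes were not called different were Bub3 (-0.26 ± 0.15, limma adjusted p = 0.223), Anln (-0.92 ± 0.40, limma adjusted p = 0.09) and Pttg1 (-0.47 ± 0.31, limma adjusted p = 0.274). The 3 largest differences were those of Birc5 (-3.39 ± 0.38), Ccnb2 (-2.80 ± 0.30) and Ube2c (-2.76 ± 0.37), with limma adjusted p of 1.63e-06, 9.65e-07 and 9.66e-06. The smallest called differences were those of Plk4 (-1.15 ± 0.35, limma adjusted p = 0.0189), Cenpf (-1.51 ± 0.43, limma adjusted p = 0.0119) and Incenp (-1.52 ± 0.17, limma adjusted p = 9.65e-07). The count was 36 to 39 when single libraries were left out, and 39 without replicate 2 of the 6-month large cells. Plk4 lost its call without replicate 1 of the 20-month large cells, replicate 2 of the 20-month 2-day cultures or replicate 4 of the 6-month large cells, and Ect2 without replicate 3 of the 20-month large cells, replicate 3 of the 20-month 2-day cultures, replicate 1 or 4 of the 6-month large cells or replicate 1 of the 6-month 2-day cultures.

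Markers of other cells moved with these groups. The 12 stromal and osteoblast markers summed to 2993 to 3687 TPM in 20-month large cells against 709 to 908 TPM in 20-month 2-day cultures, and to 584 to 977 TPM in 6-month large cells against 1653 to 1941 TPM in 6-month 2-day cultures. Of these 12, 8 averaged at least 1 TPM in 20-month large cells, 8 in the 2-day cultures of either age and 9 in 6-month large cells. Bglap was at 0 in all of these libraries, and Lum was also at 0 in 20-month large cells. In 20-month large cells against 20-month 2-day cultures, most of the sum was Col1a1 (1490 against 261.9 TPM) and Col1a2 (1551 against 377.1 TPM). Col3a1, Pdgfrb and Thy1 were also higher there, while Cxcl12 (27.8 against 57.17 TPM), Runx2 (11.34 against 16.68 TPM), Pdgfra and Dcn had lower means. At 6 months Cxcl12 (18.53 against 74.07 TPM) and Runx2 (9.04 against 20.17 TPM) were lower in large cells too. The 8 B and plasma cell markers summed to 85.03 to 109.9 TPM in 20-month 2-day cultures and to at most 11.55 TPM in every other group. The osteoclast markers were 19150 to 29510 TPM in 20-month large cells and 11500 to 16020 TPM in 6-month large cells. Of these markers, only Ctsk, Oscar and Calcr were called higher at 20 months. Acp5 (9196 against 4967 TPM, limma adjusted p = 0.153) and Mmp9 (3286 against 1904 TPM, limma adjusted p = 0.214) were not called. Dcstamp (79.29 against 85.98 TPM) and Ckb (1111 against 1489 TPM) had lower means, and the rest had higher means. The 10 macrophage markers summed to 3893 to 4436 TPM in 20-month large cells against 3577 to 4103 TPM in 20-month 2-day cultures, and to 3629 to 4733 TPM in 6-month large cells against 2249 to 2520 TPM in 6-month 2-day cultures. The part of these markers in the mitosis results was not tested.

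**Figure D3:**
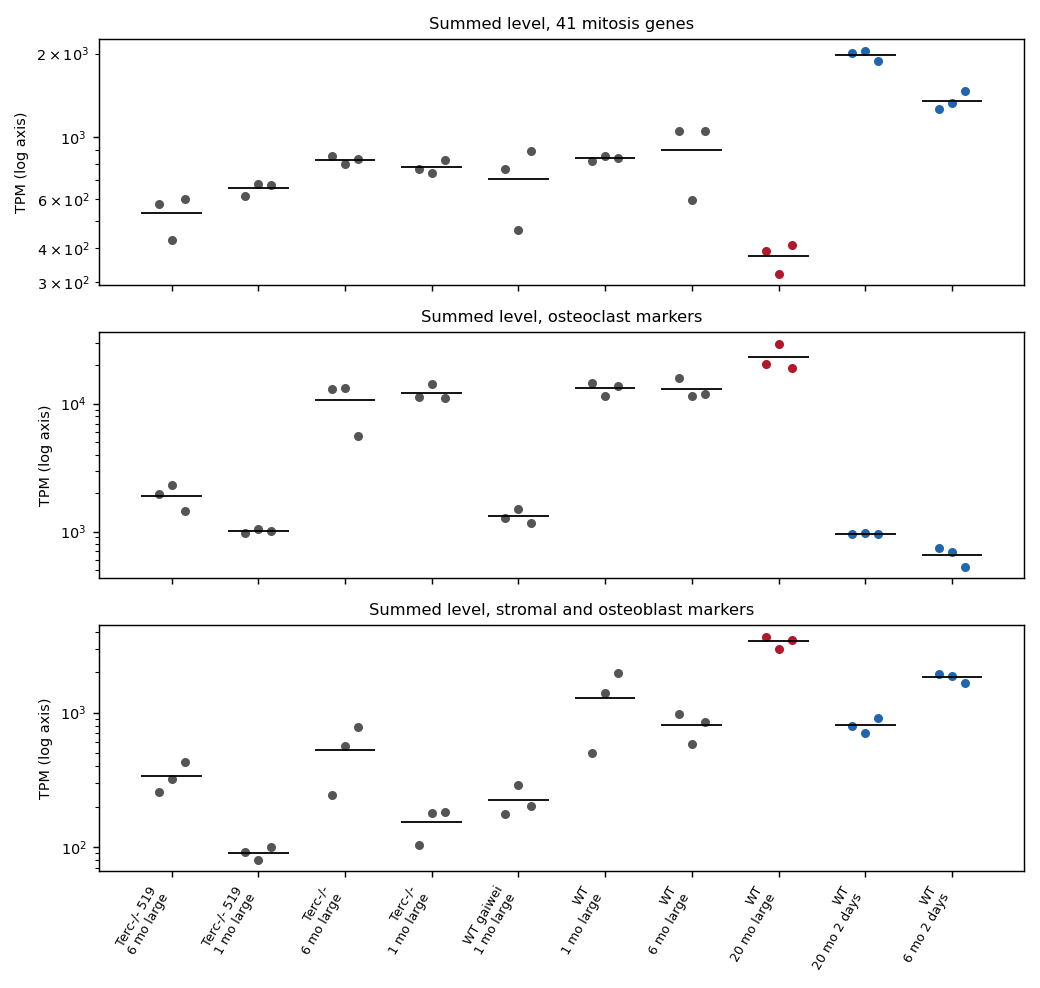
Summed TPM on log axes of the 41 mitosis genes, the 12 osteoclast markers and the 12 stromal and osteoblast markers in each library (points) with group means (lines). The 20-month large cells (red) hold 321 to 408 TPM of the mitosis genes, the lowest of all groups, and the largest sums of both marker lists, and the 2-day cultures (blue) hold 1269 to 2051 TPM of the mitosis genes.

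Among the genes of the CDK1 switch, Cdk1, the kinase that drives entry into mitosis, had 37.2, 38.3 and 37.0 TPM in 20-month large cells, against 242, 231 and 224 TPM in 20-month 2-day cultures. At 6 months it had 110.2, 50.3 and 118 TPM in large cells, against 162, 163 and 168 TPM in 2-day cultures. No library of large cells reached the 2-day level at either age, and the 3 libraries of 20-month large cells were nearly equal. Its log2 change was -2.47 ± 0.18 at 20 months (limma adjusted p = 2.14e-10) and -0.52 ± 0.18 at 6 months (limma adjusted p = 0.0185). The 6-month change of Cdk1 was not called without replicate 2 of the large cells (-0.34, limma adjusted p = 0.134).

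Ccnb1, cyclin B1, had 8.87, 4.57 and 6.36 TPM in 20-month large cells, against 62.7, 64.3 and 59.1 TPM in 20-month 2-day cultures. Its 6-month levels were 33.3, 7.06 and 32.2 TPM in large cells, against 41.7, 45.0 and 41.9 TPM in 2-day cultures, and the low value is that of replicate 2. The 6-month change in Ccnb1 was called with all libraries (-0.70 ± 0.28, limma adjusted p = 0.0449), but not without that library (-0.20, limma adjusted p = 0.493) or without any 1 of the 2-day libraries. Its partner Ccnb2, cyclin B2, fell at 20 months (-2.30 ± 0.22, limma adjusted p = 1.22e-08), while its 6-month change had the opposite sign and did not pass the test (0.50 ± 0.22, limma adjusted p = 0.0589). Ccna2, cyclin A2, and Cdc25c, the phosphatase that activates CDK1, fell at 20 months by 2.76 and 1.95 on the log2 scale and were not called at 6 months (-0.09 and 0.03). All 5 genes of the switch differed between the ages.

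Foxm1 and Mybl2 encode transcription factors that activate late cell cycle genes, Mybl2 as a partner of MuvB. Foxm1 had 6.15, 2.81 and 5.15 TPM in 20-month large cells, against 25.6, 25.1 and 26.3 TPM in 20-month 2-day cultures. At 6 months Foxm1 had 12.7, 4.83 and 13.1 TPM in large cells, against 18.4, 16.1 and 20.5 TPM in 2-day cultures. The groups did not overlap at either age, yet only the 20-month change was called (-2.12 ± 0.25, limma adjusted p = 3.64e-07; 6 months -0.53 ± 0.25, limma adjusted p = 0.0826).

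Mybl2 had 5.08, 3.13 and 3.03 TPM in 20-month large cells, against 19.7, 20.3 and 17.6 TPM in 20-month 2-day cultures. Its 6-month levels were 8.05, 8.95 and 10.7 TPM in large cells, against 11.4, 11.5 and 14.5 TPM in 2-day cultures. After scaling, the 6-month change of Mybl2 was -0.03 ± 0.21 (limma adjusted p = 0.905) and that at 20 months -1.95 ± 0.21 (limma adjusted p = 1.06e-07).

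Of the mitotic kinases, Plk1, which acts from mitotic entry to cytokinesis, had 5.47, 3.15 and 5.55 TPM in 20-month large cells, against 47.5, 45.2 and 44.2 TPM in 20-month 2-day cultures. The 6-month levels of Plk1 were 21.8, 8.48 and 24.9 TPM in large cells, against 30.9, 29.4 and 35.3 TPM in 2-day cultures. Aurka, which matures centrosomes and builds the spindle, had 5.18, 4.35 and 7.02 TPM in 20-month large cells, against 56.4, 52.1 and 51.2 TPM in 20-month 2-day cultures. Aurka and Plk1 were among the genes with the widest range between groups, 9.65 and 9.67 times. At 6 months Aurka had 26.4, 14.3 and 31.0 TPM in large cells, against 39.0, 42.9 and 43.6 TPM in 2-day cultures. The 6-month change was called for Aurka (-0.47 ± 0.18, limma adjusted p = 0.0298) but not for Plk1 (-0.51 ± 0.23, limma adjusted p = 0.0721), and both were called at 20 months. Plk4, the kinase of centriole duplication, fell at 20 months (-1.83), and its 6-month change was called with all libraries (-0.68, limma adjusted p = 0.0265). Without replicate 2 of the 6-month large cells, neither Aurka (-0.35, limma adjusted p = 0.141) nor Plk4 (-0.29, limma adjusted p = 0.286) was called at 6 months. Both calls were also lost without replicate 2 or 3 of the 2-day cultures, and that of Aurka without replicate 1 of the large cells.

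The chromosomal passenger complex corrects faulty attachments and later guides cytokinesis. Birc5, its subunit survivin, had 10.9, 8.27 and 9.44 TPM in 20-month large cells, against 76.8, 78.4 and 71.3 TPM in 20-month 2-day cultures. At 6 months Birc5 had 42.4, 60.04 and 48.9 TPM in large cells, against 36.2, 40.1 and 46.7 TPM in 2-day cultures, so the means lay in the opposite order, by a margin that was not called without replicate 2 of the large cells. Aurkb, its kinase, had 5.60, 4.16 and 6.03 TPM in 20-month large cells, against 33.5, 32.9 and 33.4 TPM in 20-month 2-day cultures. The 6-month levels of Aurkb overlapped, with 20.0, 10.2 and 20.8 TPM in large cells against 17.2, 15.3 and 19.0 TPM in 2-day cultures. Incenp, its scaffold, fell at 20 months (-1.69 ± 0.12) and was not called at 6 months (-0.17 ± 0.12, limma adjusted p = 0.221). All 3 subunits differed between the ages.

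**Figure D4:**
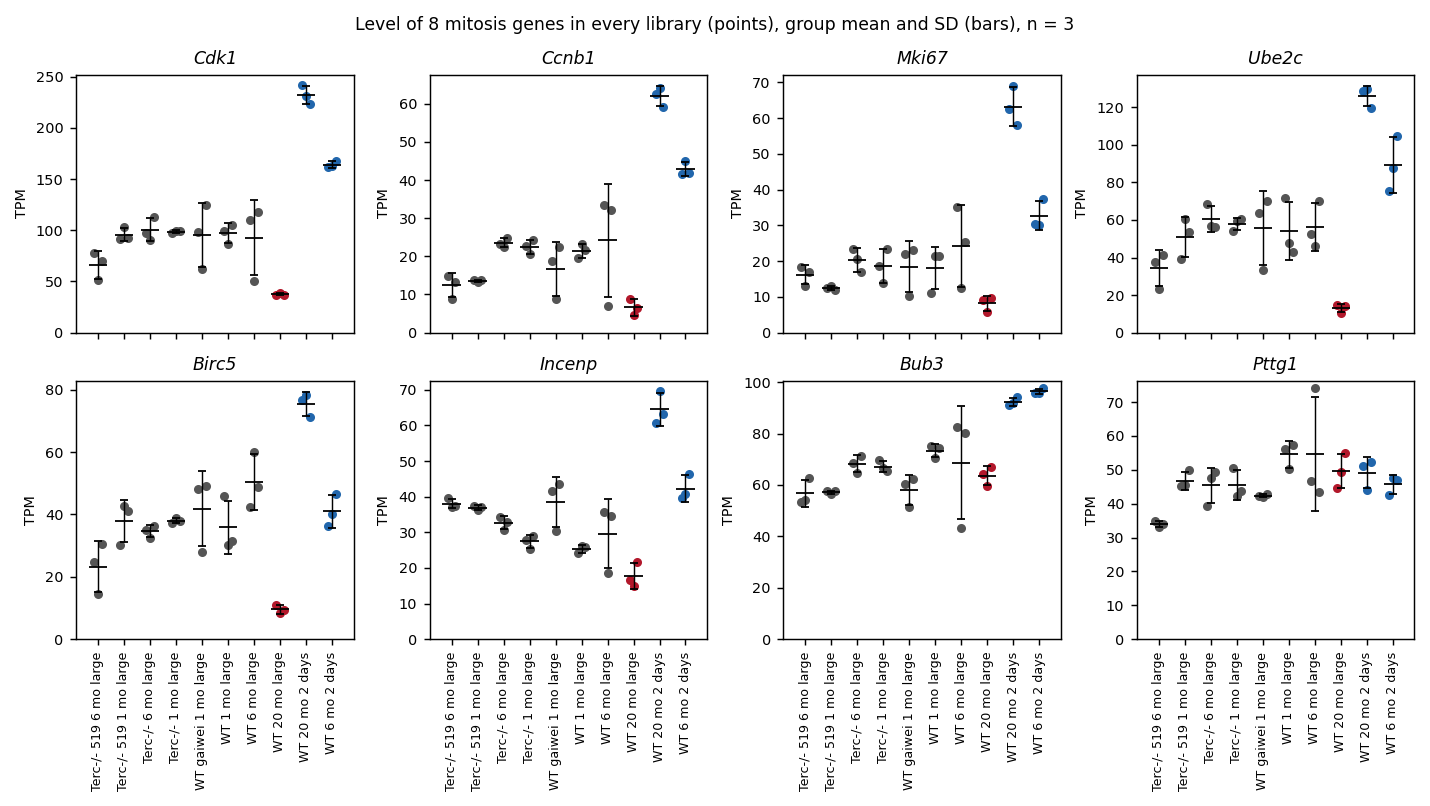
TPM of 8 mitosis genes in every library (points), with group means and SD (n = 3). Cdk1, Ccnb1, Mki67, Ube2c and Birc5 are lowest in 20-month wild-type large cells (red) and highest in 20-month 2-day cultures (blue), Incenp is higher in marked than in unmarked Terc-/- cells, and the group means of Bub3 and Pttg1 span 1.70 and 1.61 times.

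The spindle checkpoint holds anaphase until all kinetochores are attached. Bub1, a checkpoint kinase at the kinetochore, had 4.59, 3.36 and 3.66 TPM in 20-month large cells, against 27.7, 32.8 and 28.7 TPM in 20-month 2-day cultures. At 6 months Bub1 had 17.4, 3.63 and 13.8 TPM in large cells, against 18.2, 15.04 and 18.1 TPM in 2-day cultures, which overlapped. Mad2l1, the inhibitor MAD2, had 16.6, 12.7 and 16.0 TPM in 20-month large cells, against 65.9, 67.4 and 56.7 TPM in 20-month 2-day cultures. At 6 months Mad2l1 had 35.4, 15.2 and 35.7 TPM in large cells, against 40.0, 44.6 and 49.8 TPM in 2-day cultures. Neither was called at 6 months (Bub1 -0.39, limma adjusted p = 0.179; Mad2l1 -0.33, limma adjusted p = 0.0917).

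Bub3, which brings BUB1 and BUBR1 to kinetochores, behaved unlike its partners. It had 64.2, 59.7 and 67.0 TPM in 20-month large cells, against 91.0, 91.9 and 94.2 TPM in 20-month 2-day cultures. At 6 months it had 82.7, 43.2 and 80.0 TPM in large cells, against 95.8, 95.7 and 97.7 TPM in 2-day cultures. Large cells were below 2-day cultures in every library, but by a small margin, and the 6-month change was not called (-0.15 ± 0.11, limma adjusted p = 0.247). Bub1b (BUBR1) and Ttk (MPS1) fell at 20 months by 2.30 and 2.34 on the log2 scale. At 6 months Ttk fell (-0.69, limma adjusted p = 0.0246) and Bub1b was not called (0.06, limma adjusted p = 0.865). The 6-month call of Ttk was lost without replicate 2 of the large cells (-0.48, limma adjusted p = 0.155) or replicate 3 of the 2-day cultures.

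At the centromere and kinetochore, Cenpa, the histone H3 variant that marks centromeres, had 10.4, 9.51 and 11.3 TPM in 20-month large cells, against 69.9, 72.4 and 57.0 TPM in 20-month 2-day cultures. At 6 months Cenpa had 32.3, 41.4 and 35.5 TPM in large cells, against 38.7, 35.2 and 42.8 TPM in 2-day cultures, and the groups overlapped. Ndc80, the microtubule-binding subunit of the outer kinetochore, had 2.69, 2.26 and 3.25 TPM in 20-month large cells, against 23.0, 24.3 and 20.2 TPM in 20-month 2-day cultures. Its fall was called at both ages, though at 6 months not without replicate 1 of the large cells or replicate 2 or 3 of the 2-day cultures. At 6 months it had 8.83, 5.99 and 9.57 TPM in large cells, against 13.2, 15.2 and 15.3 TPM in 2-day cultures (-0.43 ± 0.15, limma adjusted p = 0.0232). Its partner Nuf2 and the kinetochore proteins Cenpe and Cenpf fell at 20 months by 2.72, 2.60 and 2.21 on the log2 scale, and Cenpe also fell at 6 months (-0.66, limma adjusted p = 0.0198). That 6-month call was lost without replicate 2 of the large cells (-0.50, limma adjusted p = 0.109) or replicate 3 of the 2-day cultures. All 5 genes differed between the ages.

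All 6 mitotic kinesins fell at 20 months, within the narrow range of -2.67 to -2.21, and 2 of them fell at 6 months. Kif11, which pushes the spindle poles apart, had 4.08, 2.36 and 3.82 TPM in 20-month large cells, against 24.1, 26.3 and 22.9 TPM in 20-month 2-day cultures. At 6 months Kif11 had 14.3, 3.79 and 12.1 TPM in large cells, against 11.04, 12.9 and 15.1 TPM in 2-day cultures (-0.15, limma adjusted p = 0.627). The 6-month levels of Kif11 overlapped, and those of 20 months were far apart. Kif20a, a kinesin of the central spindle, had 4.89, 3.75 and 7.03 TPM in 20-month large cells, against 40.8, 45.0 and 39.4 TPM in 20-month 2-day cultures. At 6 months Kif20a had 20.3, 7.18 and 22.2 TPM in large cells, against 30.4, 31.0 and 33.2 TPM in 2-day cultures (-0.66, limma adjusted p = 0.0123), and without replicate 2 of the large cells Kif20a was not called (-0.37, limma adjusted p = 0.13). The other 6-month call was that of the chromokinesin Kif4 (-0.79, limma adjusted p = 0.00157), while Kif23, a centralspindlin subunit, Kif2c, a microtubule depolymerase, and Kif20b were not called.

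Of the proteins bound to spindle microtubules, Tpx2, the activator of Aurora A, had 8.05, 6.83 and 8.68 TPM in 20-month large cells, against 64.2, 67.6 and 63.3 TPM in 20-month 2-day cultures. At 6 months Tpx2 had 25.7, 9.52 and 27.7 TPM in large cells, against 54.3, 53.9 and 56.2 TPM in 2-day cultures. Its 2-day level was high at both ages, and its mean in large cells was 20.96 TPM at 6 months and 20.26 TPM at 1 month. Prc1, which bundles the central spindle, Hmmr and Dlgap5 also fell at both ages, by 2.84, 2.70 and 2.89 on the log2 scale at 20 months and by 0.74, 0.72 and 1.03 at 6 months. Without replicate 2 of the 6-month large cells, Hmmr (-0.28, limma adjusted p = 0.284) and Dlgap5 (-0.69, limma adjusted p = 0.0992) lost their 6-month calls, and Hmmr also without replicate 3 of the 2-day cultures. Nusap1 fell at 20 months (-2.23) and was not called at 6 months (0.13, limma adjusted p = 0.651).

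The 2 cytokinesis genes had the largest 6-month falls of the list. Anln, a scaffold of the contractile ring, had 5.75, 4.58 and 5.54 TPM in 20-month large cells, against 36.0, 37.9 and 32.0 TPM in 20-month 2-day cultures. At 6 months Anln had 13.6, 2.37 and 12.6 TPM in large cells, against 28.4, 29.4 and 30.8 TPM in 2-day cultures. The 2.37 TPM of replicate 2 was the lowest value of Anln in the series, and without it the 6-month fall was still called. Ect2, which activates RhoA at the cleavage furrow, fell by 2.79 on the log2 scale at 20 months and by 1.25 at 6 months, and the 6-month call was lost without replicate 2 (-0.63, limma adjusted p = 0.0707). Replicate 2 held 1.15 TPM of Ect2 against 10.3 and 8.76 TPM in the other large-cell libraries.

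Among the regulators of anaphase, Ube2c, the ubiquitin-conjugating enzyme of the anaphase-promoting complex, had 14.5, 10.5 and 14.4 TPM in 20-month large cells, against 128.5, 129.8 and 119.9 TPM in 20-month 2-day cultures. At 6 months Ube2c had 52.3, 46.1 and 70.3 TPM in large cells, against 75.2, 87.7 and 105 TPM in 2-day cultures. Cdc20, the activator of the complex, had 6.24, 5.45 and 9.77 TPM in 20-month large cells, against 59.3, 58.4 and 62.9 TPM in 20-month 2-day cultures. Both fell strongly at 20 months, and neither was called at 6 months. Cdc20 had 30.5, 19.4 and 36.9 TPM in 6-month large cells, against 43.6, 38.4 and 50.4 TPM in 6-month 2-day cultures (-0.25, limma adjusted p = 0.379).

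Pttg1, securin, the inhibitor of separase that this complex destroys, did not follow. It had 44.7, 49.3 and 54.9 TPM in 20-month large cells, against 51.1, 44.0 and 52.4 TPM in 20-month 2-day cultures (0.13 ± 0.22, limma adjusted p = 0.685). The 6-month levels of Pttg1 were 46.7, 74.1 and 43.3 TPM in large cells, against 42.5, 47.7 and 47.1 TPM in 2-day cultures. The groups overlapped at both ages, and the 6-month call was lost without replicate 2 of the large cells or any 1 of the 2-day libraries. Over all 30 libraries Pttg1 stayed between 33.0 and 74.1 TPM.

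Mki67, the proliferation antigen Ki-67 that coats mitotic chromosomes, had 9.18, 5.72 and 9.54 TPM in 20-month large cells, against 62.6, 69.0 and 58.2 TPM in 20-month 2-day cultures. At 6 months Mki67 had 35.2, 12.3 and 25.4 TPM in large cells, against 30.5, 30.2 and 37.3 TPM in 2-day cultures. Top2a, the topoisomerase that untangles sister chromatids, had 21.8, 15.1 and 18.7 TPM in 20-month large cells, against 131, 137 and 111 TPM in 20-month 2-day cultures. At 6 months Top2a had 68.3, 32.4 and 55.6 TPM in large cells, against 58.9, 70.0 and 82.5 TPM in 2-day cultures. Both overlapped between stages at 6 months and were separated at 20 months. Their 20-month changes were -2.69 ± 0.22 and -2.58 ± 0.19 (limma adjusted p = 2.03e-09 and 3.68e-10), and their 6-month changes, -0.15 and -0.09, were not called.

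Across ages of wild-type large cells, mitosis mRNA was much lower at 20 months than at 6 or 1 months, while 6 and 1 months were not separated. Against 6 months, 37 genes fell and none rose, where 27.6% of all genes were called, 12.7% higher and 14.9% lower, with a median log2 change of -1.52 (all genes 0.02). The largest falls were those of Birc5 (-2.55 ± 0.27), Ube2c (-2.28 ± 0.26) and Aurka (-2.13 ± 0.18), with limma adjusted p of 7.10e-07, 1.65e-06 and 1.43e-08. The smallest called falls were those of Bub3 (-0.34 ± 0.11), Incenp (-0.94 ± 0.12) and Cenpf (-0.96 ± 0.30), with limma adjusted p of 0.0255, 5.29e-06 and 0.0222. Plk4, Anln, Ect2 and Pttg1 were not called. In TPM, the 20-month libraries lay wholly below the 6-month ones for 26 genes. Without replicate 2 of the 6-month group this held for 40 genes, a count added after the data were seen. Neither count was set against all genes. Replicate 2 was among the 20-month values for genes such as Ccnb1 and Bub1. Without it, 40 genes were called, and when each group had its own spread 20 were. Bub3 lost its call without replicate 1 or 3 of the 20-month group or replicate 4 of the 6-month group, and Cenpf without replicate 3 of the 20-month group or replicate 1 of the 6-month group.

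Against 1 month, 39 genes were lower at 20 months, where 22.2% of all genes were called, 9.20% higher and 13.0% lower, with a median of -1.37 (all genes -0.01). The largest falls were those of Ube2c (-2.05 ± 0.26), Birc5 (-1.90 ± 0.27) and Aurka (-1.81 ± 0.18), with limma adjusted p of 3.21e-06, 1.70e-05 and 6.72e-08. The smallest called falls were those of Bub3 (-0.33 ± 0.11), Incenp (-0.63 ± 0.12) and Plk4 (-0.77 ± 0.25), with limma adjusted p of 0.0328, 0.000355 and 0.0264. Cdk1 had 37.2, 38.3 and 37.0 TPM at 20 months, against 99.2, 86.8 and 106 TPM at 1 month. Foxm1, with 5.25, 7.82 and 6.71 TPM at 1 month, and Pttg1, with 56.1, 50.1 and 57.5 TPM at 1 month, were not called. The 1-month libraries carry the Xist pattern given above, which the 20- and 6-month libraries do not, and both comparisons share the 20-month libraries. The count was 34 to 37 when single libraries were left out, and Bub3 and Plk4 each lost their call without single libraries: Bub3 without any 1 of the 20-month libraries or replicate 1 of the 1-month group, and Plk4 without replicate 1 of the 20-month group or replicate 1 or 3 of the 1-month group.

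Between 6 and 1 months, limma called none of the 41 genes in wild-type large cells, where 9.58% of all genes were called, 3.87% higher and 5.71% lower, and 7 genes had an unadjusted p under 0.05. The median log2 change was 0.12 (all genes -0.02). A count of 4, all higher, was reached without replicate 1 of the 6-month group, of 2 without replicate 1 of the 1-month group, and of 1 without replicate 2 of the 6-month group.

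In 2-day cultures the order of ages was the reverse, with 18 genes higher at 20 than at 6 months and none lower, where 17.3% of all genes were called, 8.54% higher and 8.77% lower. The median log2 change was 0.55 (all genes 0.01). The largest rises were those of the checkpoint gene Bub1b (1.13 ± 0.27), Mki67 (0.91 ± 0.22) and Aurkb (0.89 ± 0.21), with limma adjusted p of 0.00516, 0.00625 and 0.00547. The smallest called rises were those of Mad2l1 (0.47 ± 0.16), Prc1 (0.54 ± 0.18) and Ndc80 (0.56 ± 0.15), with limma adjusted p of 0.0491, 0.0435 and 0.0123. Mki67 had 62.6, 69.0 and 58.2 TPM at 20 months, against 30.5, 30.2 and 37.3 TPM at 6 months. In TPM, the 20-month libraries lay wholly above the 6-month ones for 38 genes and wholly below for Bub3, but this separation was not counted over all genes. The 18 calls were sensitive to single libraries, with 9 and 6 left without replicate 2 or 3 of the 20-month group, and 6 and 7 without replicate 1 or 2 of the 6-month group. When only these groups entered the fit, 36 genes were called.

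The genotype comparison asks whether loss of Terc changes these genes in large cells. At 1 month limma called 1 of the 41 genes, where 30.9% of all genes were called, 15.4% higher and 15.6% lower: Mad2l1, with 25.4, 21.2 and 24.7 TPM in Terc-/- cells, against 31.9, 35.3 and 32.7 TPM in wild-type cells (-0.44 ± 0.16, limma adjusted p = 0.0417). All 3 Terc-/- libraries were below all 3 wild-type libraries. The call was lost when any library of either group other than wild-type replicate 4 was left out, a single call in the other direction was made without wild-type replicate 1, and the groups differ in the Xist pattern given above. The median log2 change over the 41 genes was -0.10 (all genes 0.00). Cdk1 had 96.9, 99.0 and 99.6 TPM in 1-month Terc-/- cells, against 99.2, 86.8 and 106 TPM in wild-type cells, and Ccnb1 had 22.8, 20.6 and 24.3 TPM, against 19.6, 23.2 and 21.7 TPM in wild-type cells. These levels overlapped, and the log2 changes were 0.06 ± 0.18 and 0.10 ± 0.28.

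At 6 months 2 genes fell in Terc-/- cells, where 28.8% of all genes were called, 15.7% higher and 13.1% lower. Top2a had 41.9, 37.2 and 31.8 TPM in Terc-/- cells, against 68.3, 32.4 and 55.6 TPM in wild-type cells (-0.55 ± 0.19, limma adjusted p = 0.0334). Ndc80 had 7.99, 5.77 and 5.49 TPM in Terc-/- cells, against 8.83, 5.99 and 9.57 TPM in wild-type cells (-0.40 ± 0.15, limma adjusted p = 0.0494). Both overlapped between genotypes. Neither was called without replicate 2 or 4 of the Terc-/- group or replicate 4 of the wild-type group, Top2a was also not called without wild-type replicate 1, and Ndc80 without wild-type replicate 2. Without wild-type replicate 2, 6 genes fell, and without wild-type replicate 1 there were 4 calls, 3 of them lower. The median over the 41 genes was -0.13 (all genes 0.02).

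Within Terc-/- large cells, 6 against 1 month gave 0 calls by limma among the 41 genes, where 3.98% of all genes were called, 2.93% higher and 1.05% lower, 1 gene had an unadjusted p under 0.05 and the median was 0.10. The difference of the genotype effect between 6 and 1 months was called for 0 of the 41 genes by limma, where 3.58% of all genes were called, 2.79% upward and 0.785% downward, and 0 genes had an unadjusted p under 0.05. The genotype effect at 6 minus that at 1 month had a median of -0.07 and ran from -0.78 to 0.56. No Terc-/- library came from mice of 20 months, so the 20-month pattern was not compared between genotypes.

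The marked large-cell groups differed from the unmarked ones in many genes. At 1 month, 519-marked against unmarked Terc-/- cells gave 2 calls, both higher, where 33.6% of all genes were called, 18.5% higher and 15.1% lower: Incenp (0.88 ± 0.12, limma adjusted p = 2.27e-06) and Ndc80 (0.49 ± 0.15, limma adjusted p = 0.0142). Incenp had 37.5, 36.1 and 37.0 TPM in marked cells, against 27.8, 25.4 and 29.1 TPM in unmarked cells, and the groups did not overlap. In TPM, however, 24 genes were wholly lower in marked cells, a separation not counted over all genes. Under TPM as deposited, where the median of all genes was -0.39, 0 genes were higher and 4 lower, and the median of the mitosis genes relative to all genes was 0.05. Ndc80 lost its call without replicate 3 of the marked group.

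At 6 months, 519-marked against unmarked Terc-/- cells gave 10 lower and 1 higher, where 28.2% of all genes were called, 14.4% higher and 13.8% lower, with a median of -0.43 (all genes -0.01). The largest falls were those of Cdc20 (-0.98 ± 0.23), Mybl2 (-0.97 ± 0.21) and Dlgap5 (-0.92 ± 0.32), with limma adjusted p of 0.00216, 0.00104 and 0.0335. The smallest called falls were those of Kif2c (-0.57 ± 0.21), Kif11 (-0.67 ± 0.25) and Plk1 (-0.67 ± 0.23), with limma adjusted p of 0.0449, 0.0462 and 0.0329. The gene that rose was Incenp, with 39.5, 37.2 and 37.4 TPM in marked cells, against 34.3, 30.7 and 33.0 TPM in unmarked cells (0.49 ± 0.12, limma adjusted p = 0.00227). With TPM as deposited, 20 genes were lower and 0 higher, with a median of -0.40 relative to all genes. Only 5 genes were called without replicate 2 of the marked group, and 6 without replicate 1 of the unmarked group.

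Within 519-marked Terc-/- cells, 11 genes were lower at 6 than at 1 month, where 23.9% of all genes were called, 12.0% higher and 11.8% lower, with a median of -0.43 (all genes -0.01). Cdk1 had 77.9, 51.3 and 69.7 TPM at 6 months, against 91.3, 103 and 92.3 TPM at 1 month (-0.73 ± 0.18, limma adjusted p = 0.00472). The largest falls were those of Birc5 (-0.92 ± 0.27), Ube2c (-0.77 ± 0.26) and Cdk1, and the smallest called were those of Kif23 (-0.48 ± 0.17), Aurka (-0.52 ± 0.18) and Top2a (-0.62 ± 0.19). The count fell to 2 without replicate 2 of the 1-month group, to 3 without its replicate 3, and to 2 without replicate 2 of the 6-month group. Birc5 and Ube2c lost their calls in each of these 3 fits. With TPM as deposited, where the median of all genes was 0.14, 2 genes were called, both lower. Stromal and osteoblast markers summed to 256.8 to 430.2 TPM at 6 months against 79.92 to 99.42 TPM at 1 month in these cells, osteoclast markers to 1457 to 2331 against 976.3 to 1049 TPM, and macrophage markers to 6365 to 6756 against 8761 to 9032 TPM, and their part was not tested. The difference of the mark's effect between 6 and 1 months, a test chosen after the data were seen, gave 0 calls by limma, where 4.67% of all genes were called, 1.96% upward and 2.71% downward, with 13 genes at an unadjusted p under 0.05 and a median of -0.53 (all genes -0.03). Without replicate 1 of the marked 1-month group it gave 2.

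In 1-month wild-type cells, gaiwei-marked libraries had 5 genes higher and none lower than unmarked ones, where 46.5% of all genes were called, 24.2% higher and 22.4% lower. These were Incenp (1.12 ± 0.12), Aurkb (0.77 ± 0.21), Birc5 (0.75 ± 0.27), Mki67 (0.54 ± 0.22) and Cdk1 (0.48 ± 0.18), with limma adjusted p of 3.40e-08, 0.00522, 0.0271, 0.0494 and 0.0301. Incenp had 41.6, 30.5 and 43.6 TPM in marked cells, against 24.1, 26.3 and 25.8 TPM in unmarked cells. With TPM as deposited, where the median of all genes was -0.49, Incenp was the only gene higher and 5 were lower, and Cdk1 changed sign (-0.08, limma adjusted p = 0.766). Replicate 2 of the marked group had the lowest sum of mitosis genes of that group, 463 TPM against 768 and 893 TPM, and without it 9 genes were called. The count was 2 without marked replicate 1 and 3 without marked replicate 3, and 3 and 2 without replicate 3 or 4 of the unmarked group. Birc5 and Cdk1 lost their calls in each of these 4 fits. The unmarked libraries carry the Xist pattern and the marked ones do not.

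Marked Terc-/- against marked wild-type cells of 1 month gave 0 calls by limma, where 3.45% of all genes were called, 1.58% higher and 1.87% lower, with 1 gene at an unadjusted p under 0.05 and a median of -0.13 (all genes -0.02). Neutrophil markers summed to 1200 to 3296 TPM in marked libraries, against 2.99 to 203 TPM in unmarked large cells, with Elane at 0 in all marked libraries, and osteoclast markers were lower in marked libraries as given above. Of the 9 neutrophil markers, 2 averaged at least 1 TPM in each marked group. S100a9 and Mpo were also at 0 in all libraries of the 1-month 519-marked group, and Mpo and Cxcr2 in those of the 6-month 519-marked group. Macrophage markers summed to 8761 to 9032 TPM in 519-marked against 4499 to 5288 TPM in unmarked Terc-/- cells at 1 month, and to 6365 to 6756 TPM in 519-marked against 5401 to 6397 TPM in unmarked cells at 6 months. They summed to 6491 to 7451 TPM in gaiwei-marked against 3536 to 3884 TPM in unmarked wild-type cells. Stromal and osteoblast markers summed to 79.92 to 99.42 TPM in 519-marked against 103.6 to 181.7 TPM in unmarked Terc-/- cells at 1 month, and to 256.8 to 430.2 TPM in 519-marked against 242.3 to 777.1 TPM in unmarked cells at 6 months. In gaiwei-marked cells they summed to 176.1 to 291.6 TPM, against 498.5 to 1966 TPM in unmarked wild-type cells. The 7 T and NK cell markers summed to at most 1.528 TPM in any marked library and to at least 4.37 TPM in these unmarked ones. In the unmarked groups this sum was almost all Trac, the only 1 of the 7 that averaged at least 1 TPM. Cd3e, Cd3g, Cd8a and Nkg7 were at 0 in all libraries of these unmarked groups. The part of these markers in the comparisons of marked groups was not tested.

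Other cell cycle genes were counted from lists that hold none of the 41 genes, and each count is given beside the share of all genes called in the same direction. Of 50 further mitotic genes, 46 fell in large cells against 2-day cultures at 20 months, with a median of -2.04, and of 40 genes of S phase and DNA replication 37 fell, with a median of -1.52. Neither list had a gene that rose, where 17.5% of all genes were lower and 18.7% higher. Rrm2, a subunit of ribonucleotide reductase, averaged 10.1 TPM in 20-month large cells and 124 TPM in 20-month 2-day cultures (-3.36 ± 0.16, limma adjusted p = 3.17e-13). At 6 months, 13 of the further mitotic genes fell and 2 rose, and 9 of the S phase genes fell and 6 rose, with medians of -0.36 and 0.01, where 25.1% of all genes were lower and 24.6% higher. The 6-month shares of both lists thus lay near or below those of all genes. The change was more negative at 20 than at 6 months for 44 of the 50 and 36 of the 40, and 1 further mitotic gene went the other way, where the shares of all genes were 12.6% and 12.4%. In 2-day cultures, 16 of the further mitotic genes and 14 of the S phase genes were higher at 20 than at 6 months, and 1 further mitotic gene was lower, where 8.54% of all genes were higher and 8.77% lower.

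S phase genes were also counted in the marked groups. In 519-marked against unmarked Terc-/- cells of 1 month, 18 of 40 S phase genes were higher and 1 lower, beside 2 of 41 mitosis genes higher, where 18.5% of all genes were higher and 15.1% lower. In gaiwei-marked against unmarked wild-type cells, 19 S phase genes were higher and 1 lower, beside 5 mitosis genes higher, where 24.2% of all genes were higher and 22.4% lower. In 519-marked Terc-/- cells, 24 S phase genes were lower at 6 than at 1 month, beside 11 mitosis genes, where 11.8% of all genes were lower. Whether the shares of the 2 lists differ was not tested.

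Of 20 CDK inhibitors and repressors of the cell cycle, 4 rose and 11 fell in large cells against 2-day cultures at 20 months, where 18.7% of all genes were higher and 17.5% lower. Cdkn2a, which encodes p16INK4a and p19ARF, averaged 75.7 ± 11.7 TPM in 20-month large cells and 11.9 ± 2.78 TPM in 20-month 2-day cultures (SD, n = 3 each; log2 change 2.68 ± 0.26, limma adjusted p = 1.55e-08). Cdkn2a also rose at 6 months, with 82.0 ± 25.8 TPM in large cells and 30.9 ± 6.57 TPM in 2-day cultures (SD, n = 3 each; log2 change 1.73 ± 0.26, limma adjusted p = 9.57e-06). Its level did not separate large cells of 20 and 6 months (-0.37 ± 0.26, limma adjusted p = 0.269). Cdkn1b, which encodes p27, was higher in large cells of 20 than of 6 months, 32.9 ± 1.55 and 16.8 ± 4.99 TPM (SD, n = 3 each; 0.69 ± 0.12, limma adjusted p = 0.00016). Cdkn1c, which encodes p57, was lower in that comparison, 1.71 ± 0.09 and 4.85 ± 1.03 TPM (SD, n = 3 each; -1.30 ± 0.19, limma adjusted p = 3.80e-05). Cdkn1a, which encodes p21, and Cdkn2c, which encodes p18, were not called there (-0.01 and 0.16). E2f8, a repressor whose own expression follows the cell cycle, averaged 2.63 TPM in 20-month large cells and 17.5 TPM in 20-month 2-day cultures (-2.18 ± 0.25, limma adjusted p = 1.96e-07), and Ccnd1, cyclin D1, averaged 59.3 and 201 TPM in the same groups (-1.62 ± 0.15, limma adjusted p = 1.49e-08).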

How the data were processed

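Values were TPM in 5 tables deposited by the authors; the unit was read from the values, since every column sums to 1000000 and no source names it. HTSeq and mm10 are listed without versions in the submitters' processing notes, and no aligner is named in the sources used here. GENCODE M21 gave symbols for 45143 identifiers, and RefSeq gave promoters. Libraries were scaled by a trimmed mean of log ratios, leaving out 30% of ratios and 5% of levels on either side. A limma model of 10 group means, with trend and robust moderation, was fitted to log2(scaled TPM + 1), with Benjamini-Hochberg adjustment inside each contrast (threshold 0.05). The fit was tested on simulated data with independent libraries and, for each gene, the same spread in every group. That test does not cover unequal spread between groups or an outlying library. Genes from every role are given in every library, plus the 3 largest and 3 smallest called changes and those called against the majority. The members and lists were chosen with earlier results of these data known. Alternatives were TPM as deposited, median-ratio scaling, no filter, a pseudocount of 0.1, a replicate block, group weights, only the groups compared, and leaving out each library. Tools were R 4.3.3, limma 3.58.1, Python 3.11.15, pandas 2.3.3, numpy 2.4.6 and matplotlib 3.10.9.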

Additional observations from a re-analysis of the deposited data

Results flagged for a closer look

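The change from 2-day cultures to large cells differed between 20 and 6 months of wild type, by a test of the difference itself in limma, for 38 of the 41 mitosis genes. On the log2 scale, the change at 20 months minus that at 6 months was -2.76 for Ube2c, -3.39 for Birc5, -1.95 for Cdk1 and -2.55 for Mki67. The summed stromal and osteoblast markers, mostly Col1a1 and Col1a2, moved in opposite directions in the same comparison. They summed to 2993 to 3687 TPM in 20-month large cells against 709 to 908 TPM in 20-month 2-day cultures, and to 584 to 977 TPM in 6-month large cells against 1653 to 1941 TPM in 6-month 2-day cultures. Cxcl12 and Runx2 of that list were lower in large cells at both ages. The part of these markers was not tested. The count of 38 became 36 to 39 when single libraries were left out, and 39 without replicate 2 of the 6-month large cells, a library that stood apart from its group.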

How the results depend on the processing

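Over the 41 genes, calls of 20-month large cells against 2-day cultures (40), 20 against 1 month (39) and the difference between ages (38) stayed within 1.5 times under every alternative, and the calls of Terc-/- 6 against 1 month, of marked Terc-/- against marked wild type and of the genotype difference between ages stayed at 0. With TPM as deposited, the counts were 0 for Terc-/- against wild type at 1 month and 0 at 6 months (reported 1 and 2), 2 for 519-marked 6 against 1 month (reported 11), 26 for the 6-month step (reported 17), 10 for 2-day cultures (reported 18), 4 and 20 for 519-marked against unmarked at 1 and 6 months (reported 2 and 11), and 6 for gaiwei-marked (reported 5). It reversed the majority in the 1-month 519-marked and the gaiwei-marked comparison, and Cdk1 in the gaiwei-marked one (-0.082). Under it the median of all genes, near 0 otherwise, was 0.27 for 20 against 6 months, -0.26 for 519-marked at 6 months, -0.16 for wild type 6 against 1 month, 0.14 for 519-marked 6 against 1 month, 0.13 for Terc-/- at 6 months, -0.11 for the 20-month step, and 0.24, 0.17 and 0.13 for the differences of the step, genotype and mark. Median-ratio scaling gave 2 for Terc-/- at 1 month, and a pseudocount of 0.1 gave 1 at 6 months. With no filter the counts were 0 and 0 for Terc-/- at 1 and 6 months, 5 for 519-marked 6 against 1 month, 7 for 519-marked against unmarked at 6 months and 2 for gaiwei-marked.

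With a weight per group, under which 6-month large cells had a weight of 0.14, the counts were 0 and 0 for Terc-/- at 1 and 6 months, 20 for large cells of 20 against 6 months, 22 for 519-marked 6 against 1 month, 2 for the 6-month step, 31 for 2-day cultures, 8 and 3 for the 1-month 519-marked and gaiwei-marked comparisons, and 5 for the added difference of the mark's effect (reported 0). With only the groups compared, the counts in the same order were 1 (higher, a reversal) and 0, 19, 18, 2, 36, 11 and 1, and 7. The cause was not tested. The replicate block gave 1 for Terc-/- at 6 months, 1 for wild type 6 against 1 month and 4 for 519-marked at 1 month, and 40, 21, 40 and 39 for 20 against 6 months, the 6-month step, the 20-month step and 20 against 1 month. The numbers were not taken as pairs in the main fit: same-numbered deviations correlated from -0.596 to 0.33, and no comparison with 3 pairs had all above 0.1. In some comparisons with 2 pairs each number matched itself best: Terc-/- 6 against 1 month (0.169 and 0.33), the 20-month step (0.0355 and 0.0989) and 2-day cultures (0.0523 and 0.0756). These correlations cannot exclude pairing.

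Leaving out each library gave 0 to 1 for Terc-/- at 1 month (1 higher without wild-type replicate 1, a reversal), 0 to 6 at 6 months, 0 to 4 for wild type 6 against 1 month, 35 to 40 for 20 against 6 months, 2 to 11 for 519-marked 6 against 1 month, 5 to 20 for the 6-month step, 6 to 14 for 2-day cultures, 1 to 3 and 5 to 13 for 519-marked against unmarked at 1 and 6 months, 2 to 9 for gaiwei-marked and 0 to 2 for the added difference. Of single-gene values under all alternatives, 2739 kept direction and call, 361 kept direction only and 1 reversed. Depth is unknown, so precision rests on 3 libraries a group and on a spread per gene that all groups share.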
